A study of Mus musculus with 8 samples.

Results

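The mRNA of 10 mouse genes that build inflammasomes or form gasdermin pores was followed through 8 libraries of intestinal RNA: the sensors Nlrp3 and Aim2, the adaptor Pycard, the caspases Casp1 and Casp4, and the gasdermins Gsdmd, Gsdmc, Gsdmc2, Gsdmc3 and Gsdmc4. They were taken by name from a table of 23282 gene lines, in which each of the 10 names was found. All mice were wild type C57BL/6. The group ExDSS received 1 mg of bovine colostrum exosomes, small vesicles secreted into milk, by mouth each day for 3 weeks and then 3% dextran sodium sulfate (DSS), a polysaccharide that injures the gut epithelium, in drinking water for 6 days. The group PC received buffer by mouth and then the same DSS. The group Ex received the exosomes and no DSS, and the group NC received buffer and no DSS. Each group has 2 libraries. The libraries were made with a kit that reads the 3′ end of each mRNA. Age, sex and gut region are not given in the sources used here. No label states whether a group's 2 libraries are from different animals, so each p-value reflects library-to-library spread, which may be technical.

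An inflammasome is a protein complex that assembles in the cytosol when a sensor recognises a microbial product or damage. Sensors such as Nlrp3 (a broad sensor of cell stress) and Aim2 (a sensor of cytosolic DNA) recruit the adaptor ASC, encoded by Pycard, which gathers and activates caspase-1. Caspase-1, and caspase-11 encoded by Casp4, cut gasdermin D, whose released amino-terminal part makes pores in the plasma membrane, and caspase-1 also matures the cytokines interleukin-1 beta and interleukin-18. In the mouse the gasdermin C genes are a tandem array expressed mainly in gut epithelium, and in infections with parasitic worms they are known as targets of interleukin-4 and interleukin-13. All of these proteins are regulated by cleavage and assembly, which mRNA counts do not measure.

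Gasdermin D is kept inactive until caspases cut it after an aspartate, and the coding bases around that site are shown. The gasdermin C genes were not searched for such a site. They cover codons 262 to 281 of the 1464 coding bases, on the plus strand of chromosome 15 (GRCm38), and capitals mark the 4 codons that end in the aspartate at codon 276.
Gsdmd: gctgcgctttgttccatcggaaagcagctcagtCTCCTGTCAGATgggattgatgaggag

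The 4 gasdermin C genes lie near one another on the minus strand of chromosome 15. In the table the genes nearest to Gsdmc2, Gsdmc3 and Gsdmc4 were gasdermin C-like ones (Gsdmcl1, Gsdmcl2 and Gsdmcl-ps), 2133 to 2164 bases away. The ends of the 4 coding sequences are shown because the genes are close copies. Reads of a 3′ assay fall near the end of the transcript, where untranslated bases, not shown here, follow the coding ones. The lines give the last 90 coding bases of Gsdmc2, Gsdmc3 and Gsdmc4 and the last 51 of Gsdmc, whose reading frame stops earlier (GRCm38), and capitals mark bases that differ from Gsdmc2 at the same position.
Gsdmc2: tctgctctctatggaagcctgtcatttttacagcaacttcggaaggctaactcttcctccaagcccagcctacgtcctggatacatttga
Gsdmc3: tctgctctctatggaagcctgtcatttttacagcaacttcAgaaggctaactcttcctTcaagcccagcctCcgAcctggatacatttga
Gsdmc4: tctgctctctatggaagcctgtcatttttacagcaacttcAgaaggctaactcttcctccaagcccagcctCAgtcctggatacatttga
Gsdmc: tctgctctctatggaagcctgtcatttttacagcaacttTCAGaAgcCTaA

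Compared position by position without gaps, Gsdmc3 differed from Gsdmc2 at 4 bases of these stretches, Gsdmc4 at 3 and Gsdmc at 8. All 8 of Gsdmc lie in its last bases, where an inserted or lost base would shift every later position. They are therefore not a count of substitutions and cannot be set beside the other counts. Over the whole coding sequence Gsdmc2 and Gsdmc3 were 97.1% identical, each was 93% identical to Gsdmc4, and Gsdmc was 82.8 to 84% identical to the other 3. Over the last 500 bases of the transcripts, aligned with gaps, Gsdmc2, Gsdmc3 and Gsdmc4 were 87 to 91.3% identical. Gsdmc was 55 to 60.6% identical to them there. Of the 451 windows of 50 bases in the last 500 bases of each transcript, the share that also occurs in another of the 4 genes was 55.7% for Gsdmc2, 38.1% for Gsdmc3, 29.3% for Gsdmc and 7.98% for Gsdmc4. The counts of Gsdmc2 and Gsdmc3 are therefore uncertain, since the counting of reads with several matches, not given in the sources used here, could split them either way. The sum over the 4 genes does not depend on how reads were split among them, but it would lack any reads dropped for having several matches.

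Total counts were 9652586 and 10812469 in ExDSS 1 and 2, 10158929 and 10412457 in PC 1 and 2, 8813622 and 1163147 in Ex 1 and 2, and 11405200 and 12308537 in NC 1 and 2. Several libraries stood apart from the others. In Ex 2 the ribosomal RNA precursor Rn45s held 53.5% of the counts, against 0.407 to 13.1% in the other 7, and 1382 of 4895 genes that were abundant in PC 1, PC 2, Ex 1 and NC 1 (at least 20 CPM, the count scaled to a library total of 1000000) were under 1 CPM. This number was 534 in ExDSS 1, 97 in ExDSS 2 and 107 in NC 2. Pancreatic acinar markers summed to 179335 CPM in ExDSS 1 and 81911 CPM in NC 2, against 60.2 to 538 CPM in the other 6. Neutrophil markers (9 genes measured) summed to 2356 and 2125 CPM in ExDSS, 15.6 and 13.1 in PC, 13.8 and 5.16 in Ex, and 3210 and 1877 in NC. DSS colitis draws neutrophils into the colon, yet their markers were higher in both libraries labelled NC than in either one labelled PC. Every direction below between these groups holds for the libraries as labelled. Epithelial markers (10 genes) were present at 3776 to 5899 CPM in 7 libraries and at 34.4 CPM in Ex 2.

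The table placed Nlrp3 on chromosome 11 from 59542686 to 59566956, Aim2 on chromosome 1 from 173420604 to 173466036 and Pycard on chromosome 7 from 127991373 to 127993867. Casp1 lies on chromosome 9 from 5298517 to 5307281 and Casp4 beside it from 5308849 to 5336791, 1568 bases away. Gsdmd lies on chromosome 15 from 75862339 to 75867404. On the same chromosome Gsdmc runs from 63775971 to 63808739, Gsdmc2 from 63824346 to 63845176, Gsdmc3 from 63857725 to 63878558 and Gsdmc4 from 63891265 to 63912297. All 10 positions overlapped the GRCm38 gene of that name, and none of the 10 gene models overlapped another line of the table. The intervals are whole genes, exons and introns included.

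Nlrp3 mRNA was close to undetectable except in a single library. It had 0 counts in both ExDSS libraries, 2 and 4 counts in PC, 1 and 0 counts in Ex, and 55 and 0 counts in NC. The 55 counts of NC 1 are 4.82 CPM. Where no count was seen, the level could still be as high as 0.311 or 0.278 CPM in ExDSS, 0.244 CPM in NC 2 and 2.58 CPM in the shallow Ex 2 (the level of 3 counts, counting error only). Nlrp3 did not pass edgeR's filter on low counts, which asks for about 10 counts in at least 2 libraries, so no difference was tested for it, and no fold is given. In CPM, NC 1 was also the highest library for Casp4 and Casp1 and for the neutrophil markers, though for Casp1 this changed with the scaling, as given below. The part of these genes in the Nlrp3 value was not tested. Only 1 of the 2 NC libraries held this signal, so NC and the other groups overlapped.

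Aim2, the DNA sensor, was well measured in 7 libraries. It had 68.2 and 242 CPM in ExDSS, 76.2 and 91.3 in PC, 111 and 0 in Ex, and 87.0 and 178 in NC. The high libraries were ExDSS 2 and NC 2, so the groups overlapped, and the spread within ExDSS and within NC was larger than the distance between the mean of PC and theirs. The fitted log2 fold change was 1.24 (SE 1.50) for ExDSS against PC, with an edgeR adjusted p of 0.788, and -1.07 (SE 1.50) for PC against NC, with an edgeR adjusted p of 1. Throughout, SE is the absolute value of the fitted change over the square root of its F statistic, not a standard error given by the model.

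Pycard, the adaptor, had close values in the 2 libraries of every group but Ex. It had 107 and 114.5 CPM in ExDSS, 352.1 and 351.5 in PC, 327 and 1.72 in Ex, and 266 and 243 in NC. Both ExDSS libraries lay below every other library but Ex 2, and both PC libraries lay above both NC libraries. The log2 fold change was -1.16 (SE 1.46, edgeR adjusted p = 0.799) for ExDSS against PC and 0.17 (SE 1.44, edgeR adjusted p = 1) for PC against NC. In CPM scaled by TMM factors, which correct for composition, PC and NC overlapped, and without NC 1 the log2 fold change of PC against NC was -0.052. RNA of bulk tissue cannot tell fewer cells of a type from less RNA per cell, in any result given here.

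Casp1, the protease at the centre of the complex, varied least of the 10 genes over the 7 libraries other than Ex 2. It had 211 and 275 CPM in ExDSS, 237 and 242 in PC, 214 and 0.860 in Ex, and 321 and 262 in NC. Outside Ex 2 its lowest and highest libraries in CPM were ExDSS 1 and NC 1, and both NC libraries lay above both PC libraries. In TMM-scaled CPM the lowest was PC 1 (175.2) and the highest NC 2 (308.2), with 280 in ExDSS 1. The log2 fold change was 0.51 (SE 1.44, edgeR adjusted p = 0.93) for ExDSS against PC and -0.56 (SE 1.45, edgeR adjusted p = 1) for PC against NC.

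Casp4, whose product caspase-11 senses bacterial lipopolysaccharide directly, varied far more than its neighbour Casp1. It had 2.07 and 18.2 CPM in ExDSS, 33.8 and 32.7 in PC, 26.1 and 0 in Ex, and 103 and 17.3 in NC. Both ExDSS libraries lay below both PC libraries, while the NC libraries stood on either side of PC. The log2 fold change was -1.42 (SE 1.67, edgeR adjusted p = 0.778) for ExDSS against PC and -0.93 (SE 1.65, edgeR adjusted p = 1) for PC against NC. The first value was -3.24 without ExDSS 2 and -0.66 without ExDSS 1, and the second turned to 0.36 without NC 1. Per 100 counts of Casp1 there were 0.981 and 6.62 counts of Casp4 in ExDSS, 14.3 and 13.5 in PC, 12.2 and 0 in Ex, and 32.2 and 6.59 in NC, so the caspases did not keep a fixed ratio between or within groups.

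**Figure D1:**
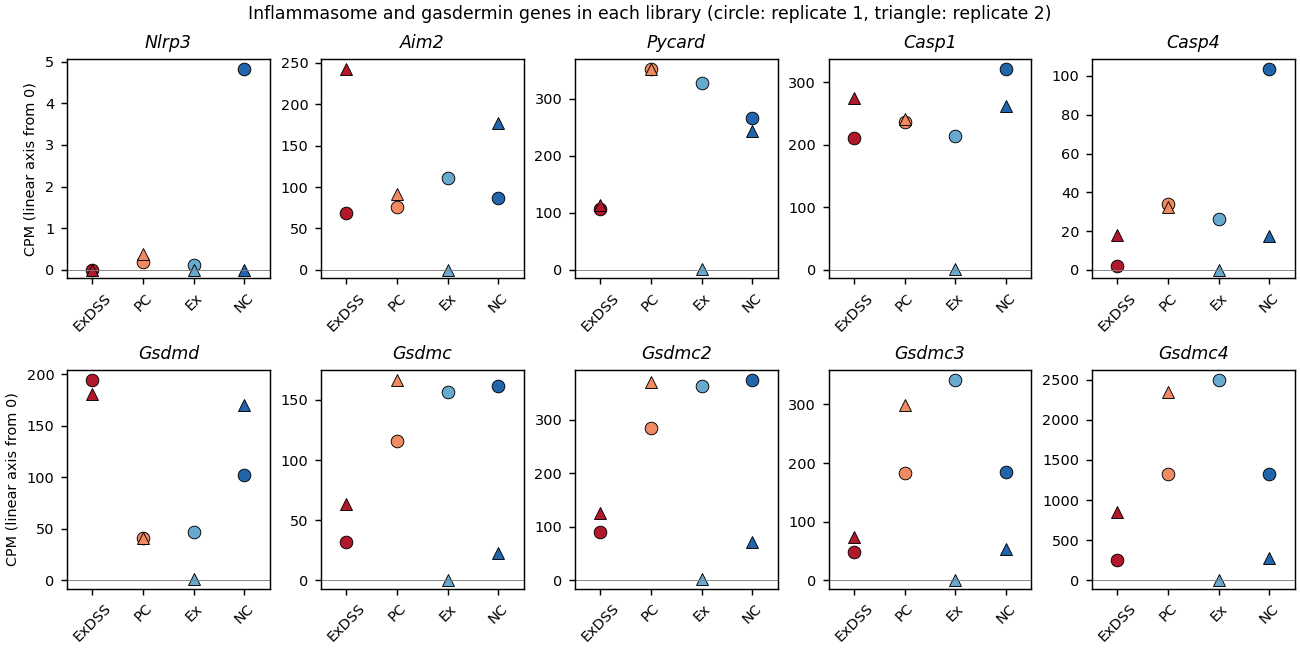
CPM (counts scaled to a library total of 1000000, linear axes starting at 0) of the 10 genes in the groups ExDSS, PC, Ex and NC; each symbol is 1 library, circles for replicate 1 and triangles for replicate 2. Gsdmd is at 195 and 181 CPM in ExDSS against 41.4 and 41.2 in PC, and the gasdermin C genes are lower in both ExDSS libraries and in NC 2 than in PC 1, PC 2, Ex 1 and NC 1.

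Gsdmd, the pore former cut by both caspases, had the largest fitted difference of the 9 tested genes in all 4 comparisons of 2 groups and in the interaction. It had 195 and 181 CPM in ExDSS, 41.4 and 41.2 in PC, 47.1 and 1.72 in Ex, and 103 and 170 in NC. Every ExDSS library lay above every other library, and every NC library above every PC and Ex library, so no groups overlapped except PC with Ex. In TMM-scaled CPM ExDSS and NC overlapped too, with 258 and 164 in ExDSS and 77.7 and 199.9 in NC. For ExDSS against PC the log2 fold change was 2.71 (SE 1.38), with an unadjusted p of 0.0624 and an edgeR adjusted p of 0.295. For PC against NC it was -2.11 (SE 1.35), with an unadjusted p of 0.133 and an edgeR adjusted p of 1. Neither passed the threshold of an adjusted p under 0.05.

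Gsdmd was also the only member with an unadjusted p under 0.05 in any comparison. For ExDSS against Ex its log2 fold change was 3.17 (SE 1.41), with an unadjusted p of 0.0352 and an edgeR adjusted p of 0.237. For Ex against NC it was -2.56 (SE 1.37), with an unadjusted p of 0.0759 and an edgeR adjusted p of 0.957. The interaction asks whether the difference made by DSS was the same with and without exosomes. It was 5.28 for Gsdmd on the log2 scale (SE 1.95), with an unadjusted p of 0.013 and an edgeR adjusted p of 0.192. DESeq2 gave 5.38 with an adjusted p of 0.0257. In this interaction edgeR called 42 of 14567 genes and DESeq2 called many more, so passing with DESeq2 did not set Gsdmd apart. Without Ex 1 edgeR gave 8.39, but the group Ex was then the single library Ex 2, with 2 counts of Gsdmd, assumed to vary like the other groups. Without Ex 2 the value was 4.41.

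The summed markers of macrophages and of neutrophils were high in the same groups as Gsdmd, while those of lymphocytes did not separate ExDSS from PC. Macrophage markers (10 genes) summed to 1873 and 3674 CPM in ExDSS, 377 and 473 in PC, 393 and 10.3 in Ex, and 1437 and 2184 in NC, with 5 of the 10 at 0 in Ex 2 and none at 0 elsewhere. Most of this sum in ExDSS came from the complement genes C1qa (1013 and 1700 CPM) and C1qb (527 and 1181 CPM), and not every marker agreed. Cd14 had 10.9 and 11.8 CPM in ExDSS, 32.3 and 36.8 in PC, 23.8 and 0 in Ex, and 142 and 2.60 in NC. Lyz2 had 26.0 and 68.6 CPM in ExDSS against 63.0 and 93.45 in PC. Mrc1 had 16.2 and 38.3 CPM in ExDSS against 29.0 and 33.8 in PC. Lyz2 and Mrc1 were also low in NC 2 (5.69 and 2.68 CPM). C1qc had 32.1 and 244 CPM in ExDSS against 63.7 and 73.0 in PC. The remaining macrophage markers were higher in both ExDSS libraries than in both PC libraries. T cell markers (9 genes) summed to 10.6 and 63.2 CPM in ExDSS, 15.1 and 17.3 in PC, 11.1 and 0 in Ex, and 37 and 34.9 in NC. B and plasma cell markers (10 genes) summed to 621 and 1703 CPM in ExDSS, 1230 and 1095 in PC, 666 and 43.9 in Ex, and 1763 and 642 in NC. ExDSS and PC thus overlapped for both lymphocyte lists, while both NC libraries lay above PC and Ex in the T cell sum. In ExDSS 1, 6 of the 9 T cell genes and 3 of the 10 B and plasma cell genes were at 0. In NC 2 these numbers were 4 and 2. The neutrophil sums given above were likewise high in ExDSS and NC and low in PC and Ex, with NC 1 as their highest library. Of the 9 neutrophil genes, Csf3r was at 0 in both ExDSS libraries, and in PC 2, Ex 1, Ex 2 and NC 2 between 2 and 6 genes were at 0. The part of these cells in the Gsdmd levels was not tested.

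The fitted differences of Gsdmd and Casp1 had the same sign in each comparison and differed in size. Per count of Casp1 there were 0.923 and 0.657 counts of Gsdmd in ExDSS, 0.175 and 0.170 in PC, 0.220 in Ex 1, and 0.319 and 0.649 in NC. The ratio of Casp1 to Pycard differed between groups as well. Per count of Pycard there were 1.98 and 2.40 counts of Casp1 in ExDSS, 0.673 and 0.688 in PC, 0.655 in Ex 1, and 1.21 and 1.08 in NC. Ratios within a library do not depend on its total. In this second ratio ExDSS, NC and PC stood in separate ranges. Ex 1, the only Ex library with more than a few counts, lay close to PC (0.655 against 0.673 in PC 1). How many other pairs of genes separate the groups in this way was not counted. Ex 2 had 1 count of Casp1 and 2 each of Pycard and Gsdmd, too few for a ratio.

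**Figure D2:**
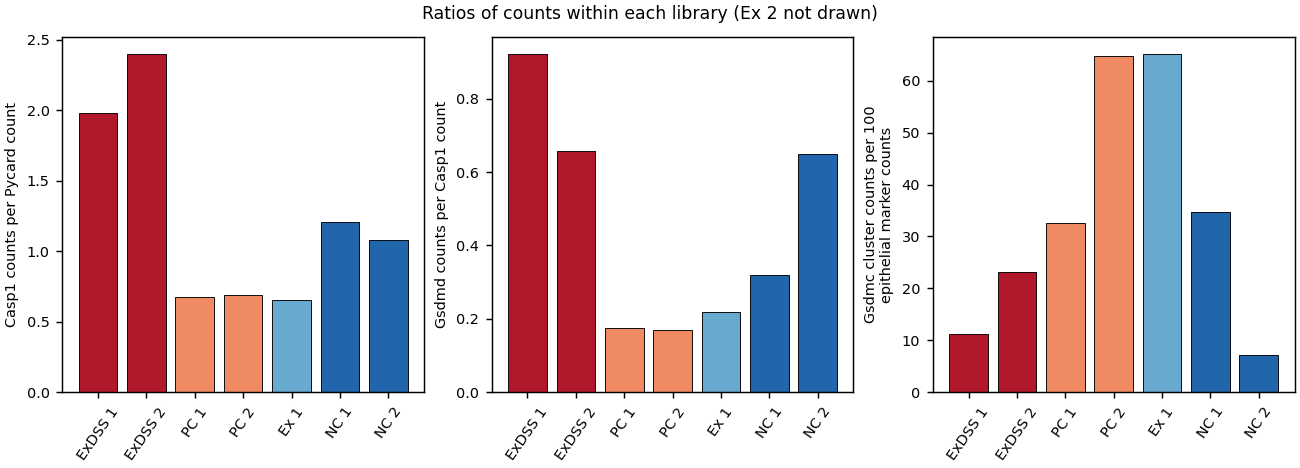
Ratios of counts within each of 7 libraries (bars from 0; Ex 2 not drawn): counts of Casp1 per count of Pycard, counts of Gsdmd per count of Casp1, and counts of the 4 gasdermin C genes per 100 counts of 10 epithelial marker genes. The first 2 ratios are highest in ExDSS and lowest in PC and Ex 1, and the third is 11.2 and 23.3 in ExDSS and 7.22 in NC 2, against 32.6 to 65.3 in the other 4.

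The gasdermin C genes, which are expressed by gut epithelium, were lower in ExDSS than in PC in every library, and were spread widely within NC. Gsdmc4 had 254 and 850 CPM in ExDSS, 1327 and 2347 in PC, 2500 and 10.3 in Ex, and 1322 and 277 in NC. Gsdmc2 had 89.7 and 127 CPM in ExDSS, 286 and 370 in PC, 363 and 2.58 in Ex, and 375 and 72.4 in NC. Both genes were low in ExDSS 1, ExDSS 2 and NC 2 and high in PC 1, PC 2, Ex 1 and NC 1.

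The other gasdermin C genes followed the same libraries. Gsdmc3 had 48.5 and 74.7 CPM in ExDSS, 184 and 299.7 in PC, 342 and 0.860 in Ex, and 185 and 53.5 in NC. Gsdmc had 32.3 and 63.4 CPM in ExDSS, 116 and 167 in PC, 156 and 0 in Ex, and 161 and 23.0 in NC. In each of the 4 genes both ExDSS libraries lay below both PC libraries. PC lay above NC in both libraries only for Gsdmc4, by 1327 against 1322 CPM at the closest, and not in TMM-scaled CPM.

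For ExDSS against PC the log2 fold changes were -1.39 (SE 1.65) for Gsdmc4, -1.53 (SE 1.49) for Gsdmc3, -1.14 (SE 1.46) for Gsdmc2 and -1.15 (SE 1.53) for Gsdmc, with edgeR adjusted p-values of 0.782, 0.712, 0.804 and 0.813 in that order. Summed into 1 gene, the 4 gave -1.35 (SE 1.67, edgeR adjusted p = 0.795), so the result of the test did not rest on how reads were split among them. Reads dropped for having several matches, if any, would be missing from the sum too. For PC against NC the values were 1.13 (SE 1.64) for Gsdmc4, 0.91 (SE 1.47) for Gsdmc3, 0.48 (SE 1.44) for Gsdmc2 and 0.57 (SE 1.51) for Gsdmc, and 0.97 (SE 1.66) for the sum, each with an edgeR adjusted p of 1. Without NC 2, the values for PC against NC were -0.14 for Gsdmc2, -0.13 for Gsdmc and 0.38 for the sum.

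Counted against epithelial marker genes in place of the library total, a denominator chosen after the values were seen, the groups ExDSS and PC remained apart. Per 100 counts of the 10 epithelial markers there were 11.2 and 23.3 counts of the gasdermin C genes in ExDSS, 32.6 and 64.8 in PC, 65.3 in Ex 1, and 34.8 and 7.22 in NC. Pycard stood at 2.83 and 2.39 counts in ExDSS, 6.00 and 7.16 in PC, 6.35 in Ex 1, and 4.52 and 4.13 in NC on the same scale. Gsdmd stood at 5.16 and 3.77 counts in ExDSS, 0.707 and 0.839 in PC, 0.914 in Ex 1, and 1.75 and 2.89 in NC. The order of ExDSS and PC was thus the same with both denominators for all 3. Of the epithelial markers, Lgals4 and Elf3 were at 0 in ExDSS 1 and Ex 2, and Lgals4 in ExDSS 2 and NC 2, and the libraries with these gaps include the 3 deep libraries in which the gasdermin C genes were low; their part in the result was not tested.

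Gsdmc4 held most of the counts of the 4 gasdermin C genes in every library, and its share differed between libraries of 1 group. The share was 59.8% in ExDSS 1 (exact 95% interval 58.3 to 61.3%) and 76.3% in ExDSS 2 (75.5 to 77.0%). It was 69.4% in PC 1 and 73.7% in PC 2, 74.4% in Ex 1, and 64.7% and 65.0% in NC. The intervals cover counting error only. The ExDSS libraries lay on either side of all the others outside Ex 2, so the composition did not separate ExDSS from PC. Gsdmc4 also had the smallest share of transcript-end windows found in another of the 4 genes, 7.98% against 29.3 to 55.7%. If reads with several matches were dropped, its share of the counts would be too high, which was not tested. Divided by the length of each gene model, the share of Gsdmc4 was 61.9 and 77.8% in ExDSS, 71.2 and 75.3% in PC, 75.8% in Ex 1, and 66.7 and 66.8% in NC. Counts of a 3′ assay need not grow with this length, so these values are not a corrected share. Gsdmd, set against the array, stood at 45.9 and 16.2 counts per 100 counts of the 4 genes in ExDSS, 2.17 and 1.29 in PC, 1.40 in Ex 1, and 5.03 and 40.0 in NC.

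**Figure D3:**
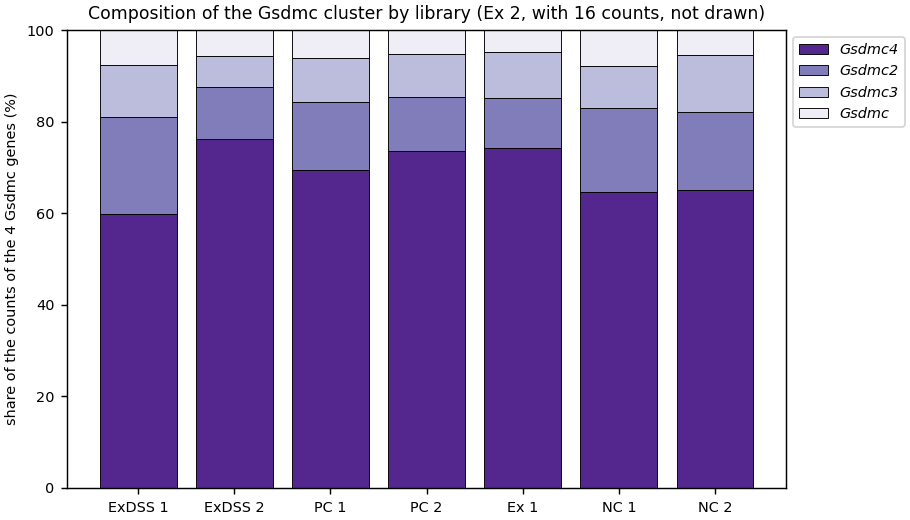
Share in percent of the counts of the 4 gasdermin C genes held by each, stacked per library for 7 libraries; Ex 2, with 16 counts in all, is not drawn. Gsdmc4 holds between 59.8 and 76.3% in every library drawn, and both of these extremes are ExDSS libraries.

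None of the 9 tested members was called in any of the 4 comparisons or in the interaction by the quasi-likelihood test of edgeR after Benjamini-Hochberg adjustment. Among all 14567 genes tested, the share called at an adjusted p under 0.05 was 0% in ExDSS against PC, 0% in PC against NC, 0% in Ex against NC and 0% in ExDSS against Ex, and 0.288% (42 genes) in the interaction. At an unadjusted p under 0.05, 0 members were higher and 0 lower in ExDSS against PC, where 2.84% of all genes were higher and 16.1% lower. In PC against NC the members again gave 0 and 0, with 0.686% of all genes higher and 1.81% lower. Gsdmd was the 1 member higher in ExDSS against Ex, beside 3.55% of all genes, and the 1 member with a positive interaction, beside 5.86% of all genes. The fit had a common dispersion of 1.173, a squared coefficient of variation between libraries of a group, and 4 residual degrees of freedom.

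Members whose groups did not overlap were counted beside the share of all genes that did the same. In ExDSS against PC, 6 of the 9 members (the 4 gasdermin C genes, Pycard and Casp4) were lower in both libraries, where 51.9% of all genes were, and 1 (Gsdmd) was higher, where 13.7% of all genes were. In TMM-scaled CPM, Aim2 and Casp1 also lay above PC, which made 3 members beside 18.9% of all genes. In PC against NC, Gsdmc4 and Pycard were higher without overlap beside 33% of all genes, and Gsdmd and Casp1 lower beside 19.1%. In Ex against NC 0 members were higher, beside 6.72% of all genes, and 2 (Gsdmd and Casp1) lower, beside 24.5%. In ExDSS against Ex 1 member (Gsdmd) was higher, beside 15.2%, and 0 were lower, beside 15.8%, and Ex 2 was the lowest of the 8 libraries for each of the 9 genes.

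The median log2 fold change of the 9 members was -1.15 in ExDSS against PC, beside -0.51 over all genes, and 0.17 in PC against NC, beside 0.10. With total counts in place of TMM factors the medians over all genes were -0.91 and 0.29. The comparisons ExDSS against PC and PC against NC share the PC libraries, so opposite signs in them are not independent of each other. For Gsdmd the values were 2.71 and -2.11 in these comparisons, for Gsdmc4 they were -1.39 and 1.13, and Casp4 was negative in both.

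**Figure D4:**
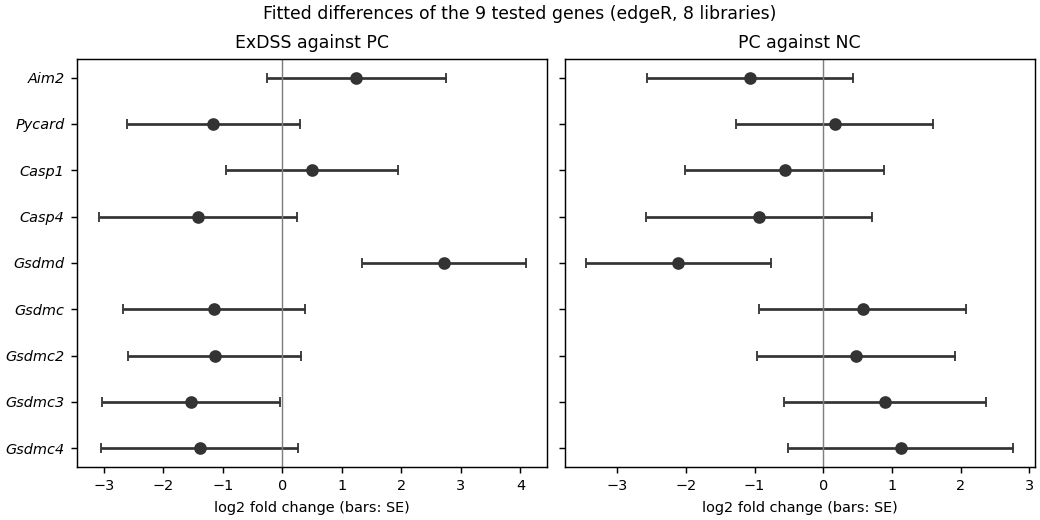
Log2 fold changes of the 9 tested genes fitted by edgeR over 8 libraries, for ExDSS against PC (left) and PC against NC (right); points are estimates and bars are 1 SE on either side. In ExDSS against PC the bars of Gsdmd (2.71, SE 1.38) and Gsdmc3 (-1.53, SE 1.49) stay clear of 0, in PC against NC only that of Gsdmd (-2.11, SE 1.35) does, and no adjusted p was under 0.05.

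Interleukin-1 family genes, their receptors and antagonists, the cytokine side of the pathway, ranged from little difference to the largest values given here. All 9 genes of this list were measured, 7 of them positive in ExDSS against PC (median log2 fold change 3.53) and 0 positive in PC against NC (median -3.18). Of all 14567 genes tested, 5920 were positive in ExDSS against PC and 7766 in PC against NC. At an unadjusted p under 0.05, 3 were higher and 1 lower in ExDSS against PC, beside 2.84 and 16.1% of all genes, and 2 were lower in PC against NC, beside 1.81%, and none was called in either comparison. Il1b, which encodes interleukin-1 beta, had 576 and 511 CPM in ExDSS, 4.04 and 2.21 in PC, 2.04 and 3.44 in Ex, and 969.6 and 372 in NC. All ExDSS and NC libraries lay far above all PC and Ex libraries. The log2 fold change was 7.99 (SE 1.74, edgeR adjusted p = 0.228) for ExDSS against PC and -7.93 (SE 1.73, edgeR adjusted p = 0.429) for PC against NC. The interaction of Il1b was 15.38 (SE 2.45, edgeR adjusted p = 0.0092), and it was no longer called without PC 1, PC 2, NC 1 or NC 2 (edgeR adjusted p between 0.0898 and 0.146).

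The decoy receptor gene Il1r2 had 31.7 and 43.4 CPM in ExDSS, 1.18 and 0.672 in PC, 1.13 and 0 in Ex, and 23.6 and 20.5 in NC. Il33, an alarmin of barrier tissue, had 47.3 and 105 CPM in ExDSS, 6.50 and 8.45 in PC, 14.5 and 0 in Ex, and 88.6 and 33.5 in NC. Both were high in the same libraries as Il1b, with log2 fold changes for ExDSS against PC of 5.81 and 3.75 (edgeR adjusted p = 0.228 each). Il18, the other cytokine that caspase-1 matures, had 80.6 and 461 CPM in ExDSS, 335 and 444 in PC, 558 and 2.58 in Ex, and 511 and 313 in NC. ExDSS and PC overlapped for Il18 (log2 fold change -0.22, edgeR adjusted p = 0.976), which was picked out after its values were seen because caspase-1 acts on it. The neutrophil and macrophage sums given above were high in the same libraries as Il1b; their part in these values was not tested.

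Of the other sensors, 13 genes were in the table and 10 were tested, with medians of -0.52 in ExDSS against PC and -1.003 in PC against NC. Naip6, a receptor for bacterial flagellin, had 0 and 0.555 CPM in ExDSS, 54.6 and 49.1 in PC, 55.5 and 2.58 in Ex, and 33.4 and 2.76 in NC. Its log2 fold change was -7.17 (SE 2.22, edgeR adjusted p = 0.228) for ExDSS against PC, and its counts are uncertain because the Naip genes are close copies of one another. Nlrc4, the partner of the Naip receptors, had 0 and 2.96 CPM in ExDSS, 23.9 and 17.2 in PC, 16.5 and 0 in Ex, and 37.4 and 18.4 in NC. Both genes were low in ExDSS. Nlrp6, a sensor expressed in gut epithelium, had 52.5 and 6.20 CPM in ExDSS, 71.6 and 45.9 in PC, 53.4 and 0.860 in Ex, and 39.4 and 165 in NC, with overlap between ExDSS and PC. Nlrp9b had 9.22 and 25.2 CPM in ExDSS, 2.66 and 2.30 in PC, 5.33 and 0 in Ex, and 9.82 and 19.2 in NC. It was therefore a sensor gene with higher values in ExDSS and NC than in PC.

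All 16 genes that license or regulate inflammasomes were tested, with medians of 0.20 in ExDSS against PC and -1.64 in PC against NC, and edgeR called none in either comparison. At an unadjusted p under 0.05, 3 were higher and 2 lower in ExDSS against PC, beside 2.84 and 16.1% of all genes, and 4 were lower in PC against NC, beside 1.81%. Gbp5, an interferon-induced GTPase that promotes Nlrp3 assembly, had 115 and 83.1 CPM in ExDSS, 4.04 and 3.75 in PC, 2.84 and 0 in Ex, and 191 and 62.7 in NC. Zbp1, a sensor of Z-form nucleic acids, had 240.4 and 586 CPM in ExDSS, 32.4 and 31.4 in PC, 24.8 and 1.72 in Ex, and 275 and 179 in NC. For ExDSS against PC the log2 fold changes were 5.23 (SE 1.53) and 4.10 (SE 1.43), each with an edgeR adjusted p of 0.228, and the interaction of Gbp5 was called (adjusted p = 0.0306). Casp8, a caspase of cell death and cytokine processing, had 2008 and 947 CPM in ExDSS, 111 and 76.1 in PC, 84.3 and 4.30 in Ex, and 356 and 2237 in NC. These 3 genes were thus higher in every ExDSS and NC library than in any PC or Ex library.

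Txnip, whose product binds thioredoxin and can bind Nlrp3, ran the other way. It had 7.04 and 24.9 CPM in ExDSS, 615 and 750.1 in PC, 694 and 2.58 in Ex, and 165 and 21.4 in NC. Its log2 fold change for ExDSS against PC was -5.06 (SE 1.81, edgeR adjusted p = 0.228), and the low libraries were those in which the gasdermin C genes were low, with Ex 2. Tnfaip3 encodes the inhibitor A20 of NF-kB signalling. It had no count in either ExDSS library and a mean of 10.2 CPM in PC. Against a floor of 3 counts per library it was at least 34.8-fold lower in ExDSS, a bound that covers counting error only. The edgeR adjusted p was 0.228. Tnfaip3 had 13.4 and 0 CPM in Ex, and 17.7 and 0.081 in NC, so Ex 2 and NC 2 nearly lacked it too. It was named after its values were seen, and ExDSS 1 lacked many abundant transcripts, as given above.

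Other gasdermins were scarce. Gsdma2, Gsdma3 and the gene of pejvakin had no count in any library, and 4 of the 7 genes of this list were tested, with medians of 1.90 in ExDSS against PC and -0.83 in PC against NC. Gsdme, listed under its older name Dfna5, encodes another gasdermin. It had 0 and 0 CPM in ExDSS, 5.41 and 4.99 in PC, 4.77 and 0 in Ex, and 6.23 and 12.7 in NC. Against the same floor it was at least 17.7-fold lower in ExDSS than in PC (edgeR adjusted p = 0.228). ExDSS 1 lacked many abundant transcripts, as given above. Gsdma went the other way, with 8.91 and 7.58 CPM in ExDSS, 1.48 and 1.73 in PC, 2.61 and 0.860 in Ex, and 2.10 and 0.163 in NC. Its edgeR adjusted p for ExDSS against PC was 0.599. Ninj1, which encodes the protein that tears the membrane after pore formation, had 60.0 and 74.4 CPM in ExDSS, 32.4 and 33.3 in PC, 38.2 and 0 in Ex, and 46.4 and 27.3 in NC. Mlkl, the pore former of necroptosis, had 41.4 and 12.9 CPM in ExDSS, 10.2 and 7.39 in PC, 7.49 and 0 in Ex, and 18.9 and 16.7 in NC. Ninj1 and Mlkl shared with Gsdmd a higher level in both ExDSS libraries than in both PC libraries, with adjusted p-values from edgeR of 0.718 and 0.596.

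None of the 7 other caspases was called by edgeR in ExDSS against PC or in PC against NC, and no median is given because Casp9, the 1 gene among them with an unadjusted p under 0.05, cannot be read in these libraries. Its 181458 counts in ExDSS 1 and 79772 in NC 2 stand beside 191356 and 84576 counts of the pancreatic elastase gene Cela2a, whose gene model overlaps it on the opposite strand. No fold is given for it.

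The relatives of Aim2 in the interferon-inducible p200 family had 8 genes in the table and 5 tested. Positive values were seen for 4 of them in ExDSS against PC (median 1.36), beside 5920 of all 14567 genes tested. In PC against NC 0 were positive (median -2.60), beside 7766 of all genes. Pyhin1 had 37.8 and 17.1 CPM in ExDSS, 3.15 and 3.36 in PC, 1.82 and 0 in Ex, and 52.3 and 18.4 in NC. Ifi204 had 5.39 and 26.9 CPM in ExDSS, 7.78 and 5.86 in PC, 8.96 and 0 in Ex, and 87.9 and 2.36 in NC. For Ifi204, as for Nlrp3 and Casp4, NC 1 was the highest library, whereas for Aim2 itself ExDSS 2 was. Genes of this family are close copies, so their counts are uncertain.

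Since gasdermin C genes respond to type 2 cytokines in worm infection, genes of that response were set beside them. Il5 and Il13 had no count in any library, 10 of 14 genes were tested, and none was called. In ExDSS against PC 9 of the 10 were positive (median 2.23), beside 5920 of all 14567 genes tested. In PC against NC 2 were (median -1.09), beside 7766 of all genes. Il4ra, the receptor subunit shared by interleukin-4 and interleukin-13, had 94.5 and 200.3 CPM in ExDSS, 35.2 and 34.6 in PC, 18.5 and 2.58 in Ex, and 146 and 87.3 in NC. Ang4, an antimicrobial ribonuclease of Paneth and goblet cells, had 25.1 and 662 CPM in ExDSS, 540 and 793 in PC, 10.4 and 6.88 in Ex, and 54.9 and 22.3 in NC. The order of libraries for Il4ra was thus not that of the gasdermin C genes, and Ang4 was high in both PC libraries and in ExDSS 2 but low in Ex 1, where the gasdermin C genes were high. The log2 fold change of Ang4 for PC against NC was 3.95 (SE 1.52), with an unadjusted p of 0.0169 and an edgeR adjusted p of 1.

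**Figure D5:**
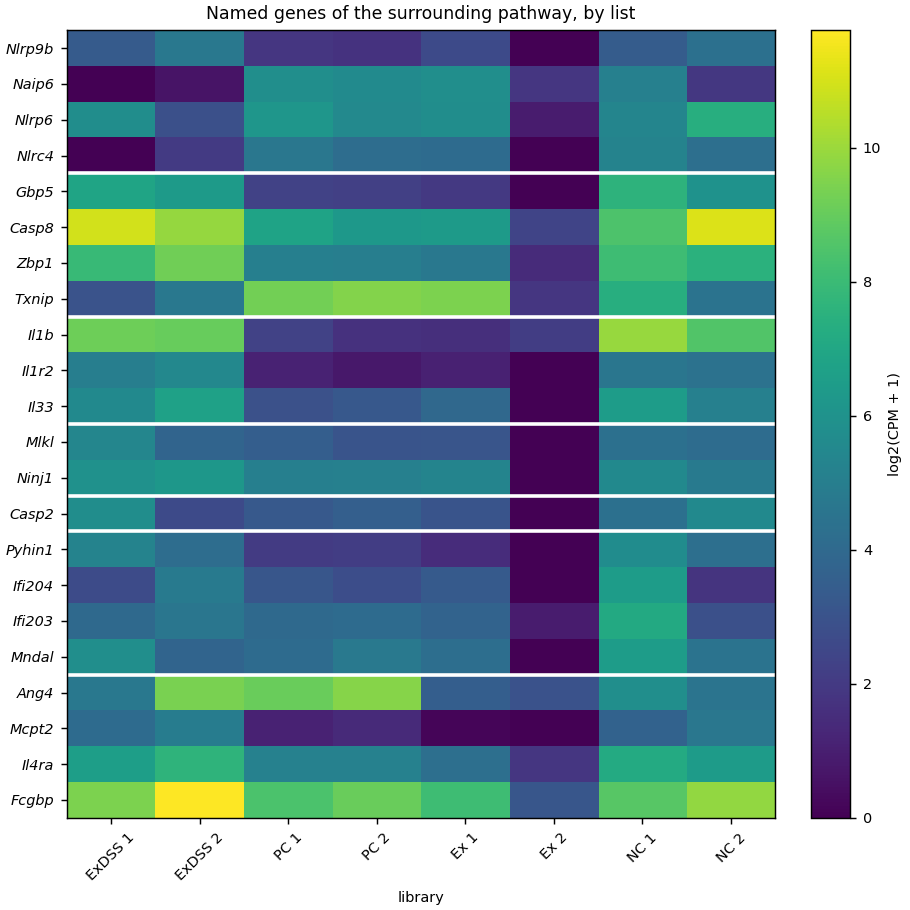
Levels as log2(CPM + 1) of the named genes of 7 surrounding lists (rows, white lines between lists; not every gene eligible to be named is drawn) in the 8 libraries (columns, ExDSS, PC, Ex and NC in that order). Il1b, Gbp5, Zbp1 and Casp8 are brighter in both ExDSS and both NC libraries than in PC and Ex, Txnip and Naip6 are bright in PC 1, PC 2, Ex 1 and NC 1, and Ex 2 is dark throughout.

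Genes with the pattern most like that of 3 members were sought among 5637 genes with a mean of at least 20 CPM, by Pearson's r of log2(CPM + 1). Over 8 libraries, which share the low depth of Ex 2 as their main contrast, Gsdmd was nearest to Gprc5a, Ptpn18, Pla2g15, Atf5 and Lgals3bp (r = 0.997 for the first and 0.995 for the last). Without Ex 2, a choice made after the values were seen, the nearest were Gpsm3, Hmox1, Pglyrp1, Igsf6 and Ifitm2 (r = 0.997 to 0.992 over 7 libraries). Hmox1, the haem-degrading enzyme, had 134 and 98.0 CPM in ExDSS, 0.886 and 1.63 in PC, 2.50 and 0 in Ex, and 21.6 and 60.1 in NC. None of the 5 nearest genes was the same with and without Ex 2.

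The sum of the gasdermin C genes was nearest to Rps6, Lgals6, Timm8b, Clca4a and Rbm7 over 8 libraries (r = 0.997 to 0.992), and to Rpl35a, Cst3, Timp2, Ginm1 and Polr2h without Ex 2 (r = 0.994 to 0.985). Lgals6, a galectin gene of the gut, had 492 and 1499 CPM in ExDSS, 3215 and 3460 in PC, 3799 and 13.8 in Ex, and 2690 and 632 in NC. Rps6, which encodes a ribosomal protein, had 230.3 and 418 CPM in ExDSS, 575 and 624 in PC, 638 and 43.0 in Ex, and 590.3 and 255 in NC. All cells express Rps6, so the nearest genes were not limited to epithelial ones. For Nlrp3, whose pattern is 1 library with counts, the nearest were Nucb2, Rnf8-cmtr1, Appl1, Trim30a and Tpm3 (r = 0.883 to 0.793), and without Ex 2 they were Cnn3, Pdgfra, Nr1d2, Gbp7 and Trim30a (r = 0.982 to 0.952). These correlations describe the libraries, which differ in depth and in missing transcripts, and carry no test.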

How the data were processed

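Total RNA was made into libraries with a QuantSeq 3′ mRNA kit, per the labels' protocols. The authors deposited 1 table of whole-number counts per gene with 8 library columns, each matching 1 sample title. Bowtie2, bedtools, edgeR and the build mm9 are named in the submitters' processing notes, without versions or settings. The coordinates in the table overlapped the GRCm38 gene of the same name for 22105 of 22176 genes matched (99.68%), so positions are given as GRCm38. How counting used strand, not given in the sources used here, bears on overlapping genes.

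From the deposited counts, CPM were computed on library totals. Differences were tested with edgeR 4.0.16 (R 4.3.3): TMM factors, genes kept by filterByExpr (minimum count 10, minimum total 15; 14567 genes), 1 model with 4 groups over 8 libraries, robust quasi-likelihood F test, and Benjamini-Hochberg adjustment over all genes tested, called under 0.05. Total counts ranged from 1163147 to 12308537, and a gene at 0 in the shallowest library can still be at 2.58 CPM. The scripts were tested on simulated counts.

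The members and gene lists were chosen with earlier results of these data known. All 10 members are named. From each other list, the 3 genes with the smallest p in ExDSS against PC and in PC against NC were eligible to be named, at a mean of at least 5 CPM. The 5 genes nearest to Gsdmd, Nlrp3 and the gasdermin C sum are named too. The rule also names 2 genes that are not reported here. Genes outside this rule that were singled out are Il18, Tnfaip3, Gsdme, Gsdma and genes with no count. Alternatives were RLE and upper-quartile factors, total counts, totals without the 50 most abundant genes, no filter, DESeq2 1.42.0, limma-voom (limma 3.58.1), no robust fit, the replicate number as a block, the gasdermin C genes summed, and leaving out each library. Coding sequences are from GENCODE vM21 transcripts (GRCm38), matched by RefSeq accession.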

Additional observations from a re-analysis of the deposited data

Results flagged for a closer look

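The difference made by DSS with exosomes (ExDSS against Ex) was tested against the difference made by DSS without them (PC against NC). Of the pathway genes, 2 passed this test of a difference between differences by edgeR's quasi-likelihood test. The interaction of Il1b was 15.38 on the log2 scale (edgeR adjusted p = 0.0092), and that of Gbp5 was 11.23 (SE 2.23, edgeR adjusted p = 0.0306). Both values take the labels of NC and PC as they stand, and neutrophil markers were higher in NC than in PC as labelled; the values with the labels exchanged were not tested. Both genes were high in ExDSS and NC and low in PC and Ex, and the group Ex holds the shallow library Ex 2, in which Il1b had 3.44 CPM and Gbp5 had 0 CPM. The adjusted p of Il1b lay between 3.58e-14 (DESeq2) and 0.0319 (total counts) with other scalings, filters, tools and the replicate block, and between 0.0168 and 0.146 with single libraries left out. It missed the threshold without PC 1 (0.127), PC 2 (0.146), NC 1 (0.0898) or NC 2 (0.131). The adjusted p of Gbp5 was 0.105 with total counts, and it passed the threshold without Ex 1 (0.0168) but not without any of the other 7 libraries (0.0538 to 0.329).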

How the results depend on the processing

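Counts of genes called over the whole table depended on the tool and on single libraries. With edgeR, 0 genes were called in PC against NC, ExDSS against PC, Ex against NC and ExDSS against Ex, and 42 in the interaction. In that order the counts were 86, 1526, 337, 2046 and 1672 with DESeq2, 2, 1160, 0, 505 and 327 with limma-voom, and 45, 132, 55, 223 and 350 without a filter. The interaction had 67 with RLE factors and 6 with total counts. With the replicate block they were 0, 41, 0, 28 and 161. The replicate numbers did not pair the samples (correlations of deviations between -0.149 and 0.051). With single libraries left out, the counts lay between 0 and 4, 0 and 6, 0 and 1596, 0 and 1883, and 0 and 1663, the highest without Ex 2 in the first 2 and without Ex 1 in the last 3. The interaction had 0 without NC 1 or NC 2. Members called remained 0 under every alternative run, except for DESeq2 in the interaction (1, Gsdmd) and without Ex 1, when Ex 2 alone stood for its group: 8 in Ex against NC, 8 in ExDSS against Ex and 4 in the interaction, where the other leave-one-out fits gave 0. Signs of members in ExDSS against PC were the same in every alternative run. In PC against NC, with single libraries left out, Gsdmc lay between -0.13 and 2.05, Gsdmc2 between -0.14 and 1.61 (each lowest without NC 2), Casp4 between -1.59 and 0.36, and Pycard between -0.052 and 0.45 (turned without NC 1). Without Ex 1, 6 of the 9 members changed sign in ExDSS against Ex, 5 in the interaction and 2 in Ex against NC. Signs in ExDSS against Ex also turned for 5 members with limma-voom and 4 with the replicate block, and in Ex against NC for 3 without Ex 2; the cause was not tested. Ex 2, with 21 counts for the 10 genes together, limits every statement on Ex.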
